A study of Homo sapiens with 6 samples.

Results

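The genes described here are the BCL2 family, the inhibitor of apoptosis proteins (IAPs), the caspases and their direct partners, a list of 37 genes. They were measured in HeyA8-MDR cells, an ovarian cancer line derived from HeyA8 that resists many drugs, after an siRNA against GRAMD1B (siGRAMD1B, 3 arrays, numbered 2, 3 and 4) or a control siRNA (siControl, 3 arrays, numbered 1, 2 and 4). GRAMD1B encodes a sterol carrier of the endoplasmic reticulum. All 6 arrays came from this 1 cell line, and the labels used here name no dose, no time after transfection and no separate cultures, so the p-values rest on array-to-array spread that could be technical. Members were every probe whose symbol in the platform annotation was on the list. This gave 73 probes for 36 of the 37 genes, out of 47231 probes on the array, and BIRC3 was not analysed here.

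Apoptosis through mitochondria is set by contacts between BCL2 proteins. Anti-apoptotic members such as BCL2, BCL-XL and MCL1 hold the pore-forming effectors BAX and BAK in check. The BH3-only proteins, made or activated in response to damage or stress, oppose those anti-apoptotic members. Once the outer membrane is permeable, cytochrome c joins APAF1 to activate caspase 9, while IAPs restrain caspases and are themselves displaced by DIABLO and HTRA2. Death receptors start a second route through FADD and caspase 8, with CFLAR as its brake.

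The arrays had median intensities between 102.7 and 128.8. GRAMD1B is given at its brightest probe, which was dim, and any other probe for it was not examined here. That probe had normalized log2 intensities of 6.26, 6.23 and 6.17 in siGRAMD1B arrays, against 6.42, 6.41 and 6.57 in siControl arrays. Its difference, -0.25 ± 0.10 (SE, log2 scale), missed the adjusted p threshold of 0.05 (limma adjusted p = 0.15). The size of this difference varied with the processing, at -0.43 with a normexp offset of 16 and -0.16 in the authors' log2 values, and it passed under none of the settings run (adjusted p between 0.11 and 0.45). The lineage markers KRT8, PAX8 and VIM lay at the 95.8th, 92.3rd and 99.97th percentile of brightness. KRT19, CDH1 and MUC16 lay below the filter on dim probes, EPCAM lay at the 57.7th percentile, and the leukocyte markers PTPRC and CD3E at the 43.8th and 11.7th. The macrophage marker CD68 (96.5th) and the endothelial marker CDH5 (89.6th) were bright, while the endothelial markers PECAM1 (50.8th) and VWF (56.8th) were dim. Of 6 tested blood and endothelial markers, CD68 was higher in siGRAMD1B arrays (0.37, limma adjusted p = 0.023), as was VWF (0.38, adjusted p = 0.033), and 0 were lower. Summed over the brightest probe of each of these 7 markers, tested or not, normalized linear intensity was between 4575 and 4690 in siGRAMD1B arrays. In siControl arrays the sum was between 3894 and 3927. Most of each sum came from the CD68 probe, with mean log2 values of 11.78 in siGRAMD1B and 11.41 in siControl arrays. CDH5, the other bright marker, differed the other way (-0.18, limma adjusted p = 0.38). Of 8 tested epithelial, ovarian and mesenchymal markers, the mesenchymal cadherin gene CDH2 was lower (-0.38, adjusted p = 0.023) and 0 were higher. The drug efflux pump gene ABCB1 was higher (0.59, adjusted p = 0.023), with groups that overlapped. The part of these markers in the results was not tested.

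A filter on dim probes, at the 40th percentile of mean log2 intensity, kept 63 member probes for 35 genes. The only BAG1 probe and 9 dim probes of other members fell below it. At an adjusted p under 0.05 (limma, Benjamini-Hochberg over all 28338 probes tested), 2 of the 63 member probes were higher in siGRAMD1B arrays, in BIRC5 and BBC3, and 2 were lower, in PMAIP1 and BNIP1. That is 6.35% of member probes, beside 7.09% of all probes tested, and 4 of 35 tested members (11.4%), beside 10.3% of all genes tested. Higher calls alone were 3.89% and lower calls 3.21% of all probes, or 6.01% and 4.33% of all genes. The share of members called was therefore near that of the array as a whole. The median log2 difference was 0.020 over member probes and -0.0046 over all probes, with members between -0.38 and 0.42, where the whole array ran between -1.52 and 2.13. No member changed by 1.5-fold. Arrays of the 2 groups did not overlap at 21 of 63 member probes (33.3%), beside 24.1% of all probes. All siGRAMD1B arrays were higher at 13 of the 63 member probes, beside 12.3% of all probes, and lower at 8 of the 63, beside 11.8%. At an unadjusted p under 0.05 there were 16 member probes (25.4%), beside 19.6% of all probes.

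**Figure D1:**
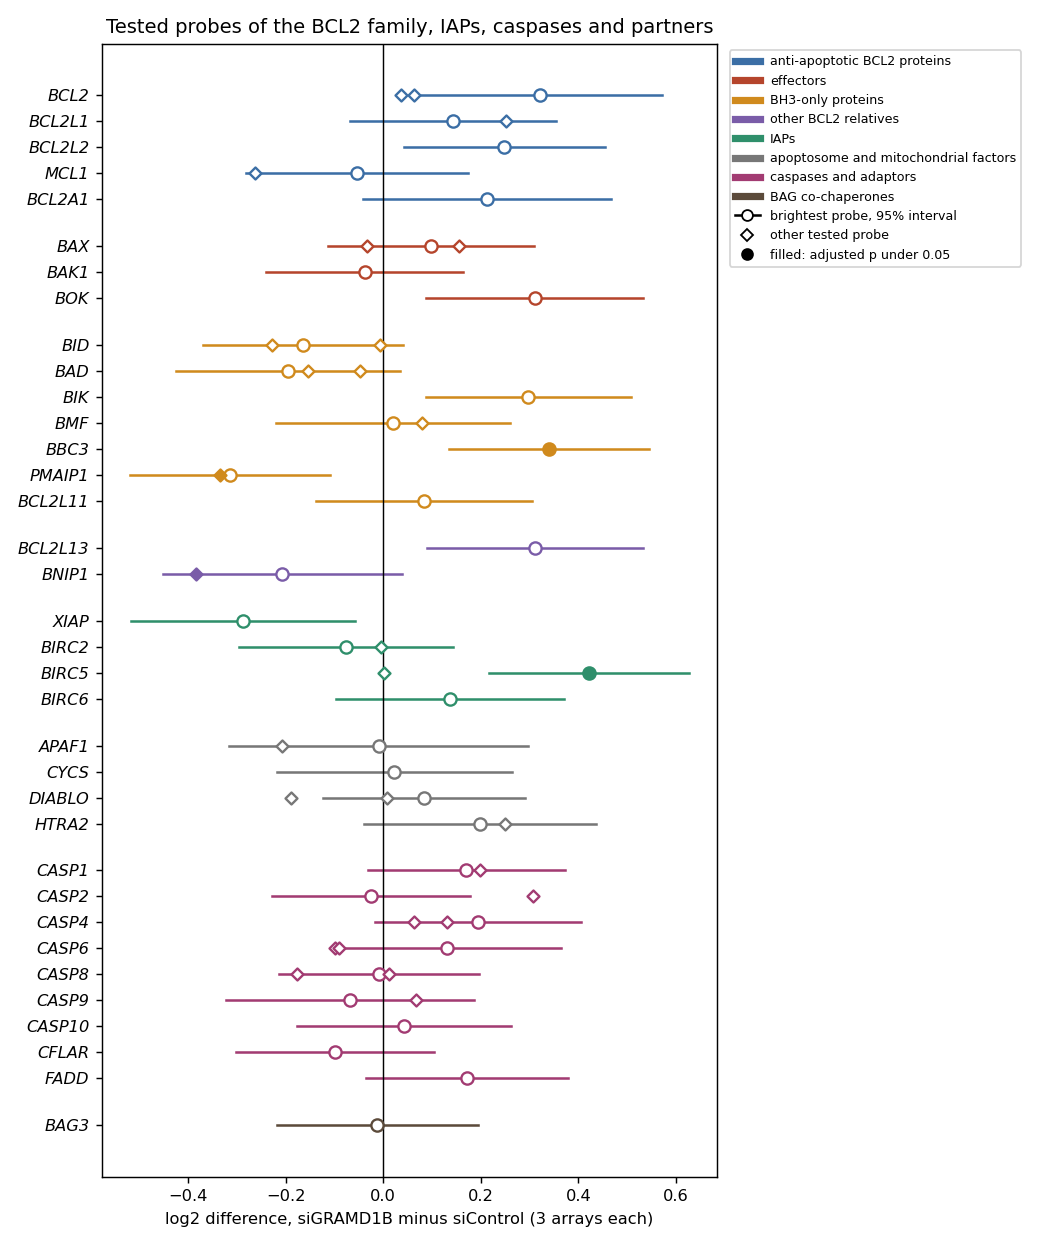
Log2 differences (siGRAMD1B minus siControl, horizontal axis) of all 63 tested probes, 1 row per member, coloured by role. Circles are the brightest probe with its 95% interval, diamonds are other tested probes, and the 4 filled symbols (BBC3, PMAIP1, BNIP1 and BIRC5) passed an adjusted p of 0.05.

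The BH3-only genes held calls in both directions. Of 7 such genes, 1 rose and 1 fell, and 5 did not pass. That is 28.6% of these few genes called, beside 10.3% of all genes tested. Their 13 probes had a median of -0.048 on the log2 scale. BBC3 and BIK had positive differences and PMAIP1, BID and BAD negative ones. The upstream windows of BBC3 and PMAIP1, the 2 called BH3-only genes, are printed to show the sequence in front of a pair that moved in opposite directions. They are the 250 bases before the annotated start (RefSeq, GRCh38.p14), at chr19:47232668-47232917 on the minus strand for BBC3 and chr18:59899746-59899995 on the plus strand for PMAIP1, written 5′ to 3′. Capitals mark 3 motifs searched on both strands, namely the CRE half-site TGACG, the CCAAT box CCAAT and the GC box GGGCGG, which do not overlap one another here.
BBC3: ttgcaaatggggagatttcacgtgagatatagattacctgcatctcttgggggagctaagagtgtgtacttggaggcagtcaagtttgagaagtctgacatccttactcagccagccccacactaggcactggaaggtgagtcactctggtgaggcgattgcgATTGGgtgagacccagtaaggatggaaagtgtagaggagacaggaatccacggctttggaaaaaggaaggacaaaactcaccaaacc
PMAIP1: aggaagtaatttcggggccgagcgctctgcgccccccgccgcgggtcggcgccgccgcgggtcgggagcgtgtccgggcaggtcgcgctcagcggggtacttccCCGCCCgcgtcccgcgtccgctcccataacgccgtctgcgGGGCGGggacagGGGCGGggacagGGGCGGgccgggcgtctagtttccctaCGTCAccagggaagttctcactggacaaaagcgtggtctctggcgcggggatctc
The PMAIP1 window held 4 GC boxes and 1 CRE half-site, with 72.8% G and C and 36 CpG dinucleotides. The BBC3 window held 1 CCAAT box, with 49.2% G and C and 4 CpG dinucleotides. Among 35116 RefSeq windows of this length, 42.6% held a GC box, 21.2% a CRE half-site and 32% a CCAAT box. Among 55 windows of the 31 matched members the shares were 61.8%, 30.9% and 29.1%. Some members thus count with more than 1 window. The median G and C content was 64.4% in member windows and 58% in all windows, and its part in the motif shares was not tested. A match describes letters only, and the arrays did not measure promoter activity.

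BBC3 encodes PUMA, a BH3-only protein that binds all anti-apoptotic BCL2 proteins. Its probe read 7.80, 7.92 and 7.90 in siGRAMD1B arrays, against 7.50, 7.62 and 7.49 in siControl arrays. Every siGRAMD1B array lay above every siControl array. The log2 difference of 0.34 ± 0.10 (SE), a 1.27-fold rise, passed narrowly (limma adjusted p = 0.042). The call was lost in 10 of 16 alternative settings, among them without siGRAMD1B replicate 2 (0.075), 3 (0.15) or 4 (0.13) and without siControl replicate 1 (0.13) or 4 (0.086), while the sign was positive in all 16.

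PMAIP1 encodes NOXA, which binds MCL1 and promotes its degradation. Its dimmer probe read 8.42, 8.41 and 8.29 in siGRAMD1B arrays, against 8.75, 8.67 and 8.70 in siControl arrays, a log2 difference of -0.33 ± 0.10 (SE, limma adjusted p = 0.044). Its brighter probe read 10.01, 10.06 and 10.19 in siGRAMD1B arrays, against 10.40, 10.41 and 10.38 in siControl arrays, and differed by -0.31 ± 0.10 (SE, limma adjusted p = 0.061). Groups did not overlap at either probe, and the 2 probes differed by 0.020 in their log2 difference, the closest match among the 20 members with more than 1 tested probe. The call of the dimmer probe was lost in 11 of 16 settings, including each array left out in turn (adjusted p between 0.068 and 0.17), with the same sign in all 16.

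BIK, a BH3-only protein of the endoplasmic reticulum, read 8.69, 8.67 and 8.67 in siGRAMD1B arrays, against 8.48, 8.41 and 8.25 in siControl arrays. The siGRAMD1B arrays were close together and above all siControl arrays, and the gap of 0.30 ± 0.10 (SE, log2 scale) missed the threshold (limma adjusted p = 0.084). BID, which caspase 8 cleaves to link death receptors to mitochondria, had differences of -0.17, -0.23 and -0.0062 at its 3 probes, and BAD, a BH3-only protein held inactive by survival kinases, had -0.20, -0.15 and -0.048. Groups did not overlap at the 2 brighter BID probes, with siGRAMD1B lower, and none of these 6 probes passed (adjusted p between 0.22 and 0.99). BMF and BCL2L11, which encodes BIM, lay near the floor of the array in every sample, at or below the 62.7th percentile, with differences at their tested probes between 0.020 and 0.083.

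No anti-apoptotic BCL2 gene passed the test. Over 9 tested probes of 5 genes the median log2 difference was 0.14, with 7 positive and 2 negative. The brightest probe of BCL2L1, which encodes BCL-XL, read 12.74, 12.70 and 12.59 in siGRAMD1B arrays, against 12.62, 12.43 and 12.55 in siControl arrays, and these ranges overlapped (log2 difference 0.14 ± 0.10 SE, limma adjusted p = 0.49). Its second probe read 9.72, 9.56 and 9.57 in siGRAMD1B arrays, against 9.20, 9.41 and 9.49 in siControl arrays, without overlap (0.25 ± 0.11 SE, limma adjusted p = 0.19, and 0.17 on the log2 scale without siControl replicate 1). BCL2L2, encoding BCL-w, had a difference of 0.25 ± 0.10 (SE, limma adjusted p = 0.15), also without overlap. BCL2 itself was dim, and its brightest probe differed by 0.32 (adjusted p = 0.12), while its other tested probes differed by 0.063 and 0.036. MCL1, the partner of NOXA, had differences of -0.055 at the 94.95th percentile of brightness and -0.26 at the 87.8th (adjusted p = 0.85 and 0.20). BCL2A1, an anti-apoptotic gene known as a target of NF-kB, read 8.61, 8.73 and 8.85 in siGRAMD1B arrays and 8.66, 8.66 and 8.23 in siControl arrays, where replicate 4 was the low one. The difference was 0.21 (adjusted p = 0.36), and 0.070 without that array (adjusted p = 0.79).

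The pore-forming effectors did not pass either. BOK, an effector not held by the anti-apoptotic proteins in the way that BAX and BAK are, read 8.30, 8.29 and 8.03 in siGRAMD1B arrays, against 7.99, 7.84 and 7.86 in siControl arrays. All siGRAMD1B arrays were higher, by a log2 difference of 0.31 ± 0.11 (SE, limma adjusted p = 0.090). The 2 brighter BAX probes differed by 0.098 and 0.16 and the dim one by -0.033. BAK1 differed by -0.038, with a 95% interval between -0.24 and 0.16.

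Of the 2 remaining relatives of the family, BNIP1 had 1 called probe of 2 and BCL2L13 had none. That is 33.3% of their 3 tested probes, beside 7.09% of all probes tested. BNIP1, a SNARE protein of the endoplasmic reticulum with a BH3-like stretch, read 8.46, 8.44 and 8.58 at the called probe in siGRAMD1B arrays, against 8.82, 9.11 and 8.70 in siControl arrays. The log2 difference was -0.38 ± 0.11 (SE, limma adjusted p = 0.045), a fall of 1.31-fold. Its slightly brighter probe overlapped between groups, with 8.67, 8.56 and 8.79 in siGRAMD1B arrays and 8.77, 9.13 and 8.74 in siControl arrays (-0.21, adjusted p = 0.36). Replicate 2 was the highest siControl array at both probes, and without it the called probe differed by -0.27 (adjusted p = 0.18) and the other by -0.080. Its call was also lost without siGRAMD1B replicate 2 (0.14), 3 (0.15) or 4 (0.076) or siControl replicate 1 (0.083), and in 10 of 16 settings in all. BCL2L13, a mitochondrial outer membrane protein that also acts as a receptor for mitophagy, read 10.68, 10.88 and 10.89 in siGRAMD1B arrays, against 10.54, 10.37 and 10.61 in siControl arrays. Its groups did not overlap, and the difference of 0.31 ± 0.11 (SE) did not pass (limma adjusted p = 0.088).

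**Figure D2:**
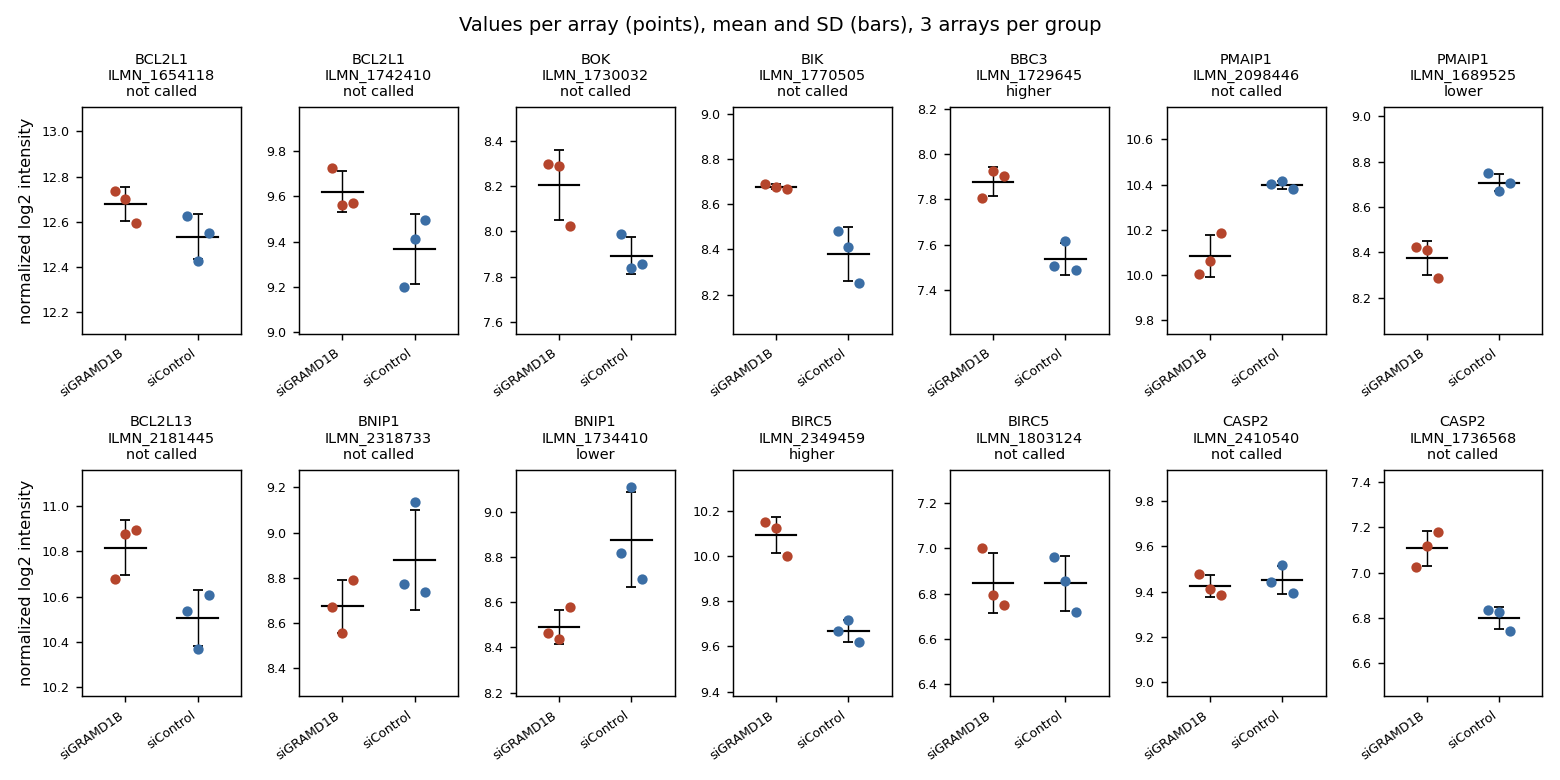
Normalized log2 intensity (vertical axes, each spanning 1 log2 unit) of every tested probe of the 9 members with a call or with non-overlapping groups and a log2 difference of at least 0.25. Points are arrays, bars are mean and SD of 3 arrays, and the line above each panel gives the call. BIRC5 and CASP2 each have 1 probe with separated groups and 1 with mixed groups.

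Among the IAPs, BIRC5 rose and the other 3 tested genes did not pass. A call was thus held by 25% of the tested IAP genes, beside 10.3% of all genes tested. BIRC5 encodes survivin, which inhibits cell death and is also a subunit of the chromosomal passenger complex that directs chromosome segregation. Its brighter probe read 10.15, 10.12 and 9.9996 in siGRAMD1B arrays, against 9.67, 9.72 and 9.62 in siControl arrays. This was the largest difference of any member, 0.42 ± 0.10 (SE) on the log2 scale or 1.34-fold, with limma adjusted p = 0.012. The dimmer probe, at the 69.7th percentile of brightness, read 6.9996, 6.80 and 6.75 in siGRAMD1B arrays and 6.96, 6.86 and 6.72 in siControl arrays, and its groups were mixed (0.0023, 95% interval between -0.22 and 0.23). The 2 BIRC5 probes thus differed by 0.42, the widest spread within a member. The call of the brighter probe remained in 10 of 16 settings and was lost without siGRAMD1B replicate 2 (adjusted p = 0.065) or 3 (0.057). XIAP, the IAP that binds and blocks caspases 3, 7 and 9, had a single dim probe with 6.90, 6.94 and 7.16 in siGRAMD1B arrays, against 7.13, 7.41 and 7.32 in siControl arrays (-0.29, limma adjusted p = 0.14). BIRC2, a ubiquitin ligase of the TNF receptor complex, differed by -0.076 and -0.0055, and BIRC6, a very large ubiquitin-conjugating IAP, by 0.14.

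The apoptosome and the factors that mitochondria release showed no call at 8 probes of 4 genes, with a median of 0.015. Both HTRA2 probes were positive, at 0.20 and 0.25 (adjusted p = 0.37 and 0.32), and the brighter one was at 0.092 without siControl replicate 1 and at 0.32 without siControl replicate 2. DIABLO, which encodes the IAP antagonist SMAC, differed by 0.084, 0.0074 and -0.19 from its brightest to its dimmest probe. The brighter APAF1 probe was the most variable of the family among siControl arrays, and read 9.595, 9.37 and 9.22 in siGRAMD1B arrays and 9.09, 9.33 and 9.80 in siControl arrays. Its dimmer probe was lower in every siGRAMD1B array (-0.21, adjusted p = 0.24). CYCS, the gene of cytochrome c, differed by 0.023.

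None of the 18 tested probes of 7 caspase genes and the adaptors FADD and CFLAR passed, and their median difference was 0.053. The inflammatory caspase genes CASP1 and CASP4, whose products process interleukins and open gasdermin pores, were positive at all 5 tested probes, of which both CASP1 probes and 1 CASP4 probe were bright. The brightest CASP1 probe read 10.60, 10.63 and 10.60 in siGRAMD1B arrays, against 10.51, 10.39 and 10.42 in siControl arrays (0.17, adjusted p = 0.36), and the brightest CASP4 probe 11.68, 11.73 and 11.84 in siGRAMD1B arrays, against 11.58, 11.64 and 11.45 in siControl arrays (0.19, adjusted p = 0.31). Neither overlapped between groups. CASP2, a caspase activated by DNA damage, had discordant probes. The dimmer one read 7.03, 7.12 and 7.18 in siGRAMD1B arrays, against 6.83, 6.83 and 6.74 in siControl arrays (0.31 ± 0.10 SE, limma adjusted p = 0.068), and the brighter one 9.48, 9.41 and 9.39 in siGRAMD1B arrays, against 9.44, 9.52 and 9.39 in siControl arrays (-0.026, adjusted p = 0.93). The initiator genes CASP8, CASP9 and CASP10 were dim at every probe, and their tested probes differed by -0.18 to 0.067. FADD differed by 0.17 and CFLAR by -0.099, each without overlap and without passing (adjusted p = 0.37 and 0.65). BAG3, a co-chaperone of HSP70 that binds BCL2, read 11.13, 11.04 and 11.09 in siGRAMD1B arrays and 11.03, 11.07 and 11.20 in siControl arrays (-0.013, adjusted p = 0.97).

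Of the 20 members with more than 1 tested probe, 14 had probes of the same sign (70%), beside 60.5% of 4051 such genes on the array. The median spread between the probes of a member was 0.18, and 0.14 over all genes. The 6 members with probes of opposite sign were BAX, DIABLO, CASP2, CASP6, CASP8 and CASP9. In PMAIP1, BNIP1 and BIRC5, 1 probe was called and the other tested probe was not, and BBC3 had 1 probe only. Taking only the brightest probe of each gene, 2 members (BIRC5 and BBC3) were higher and 0 were lower, since the called probes of PMAIP1 and BNIP1 were the dimmer ones. By that rule 5.71% of all genes were higher and 3.72% lower.

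**Figure D3:**
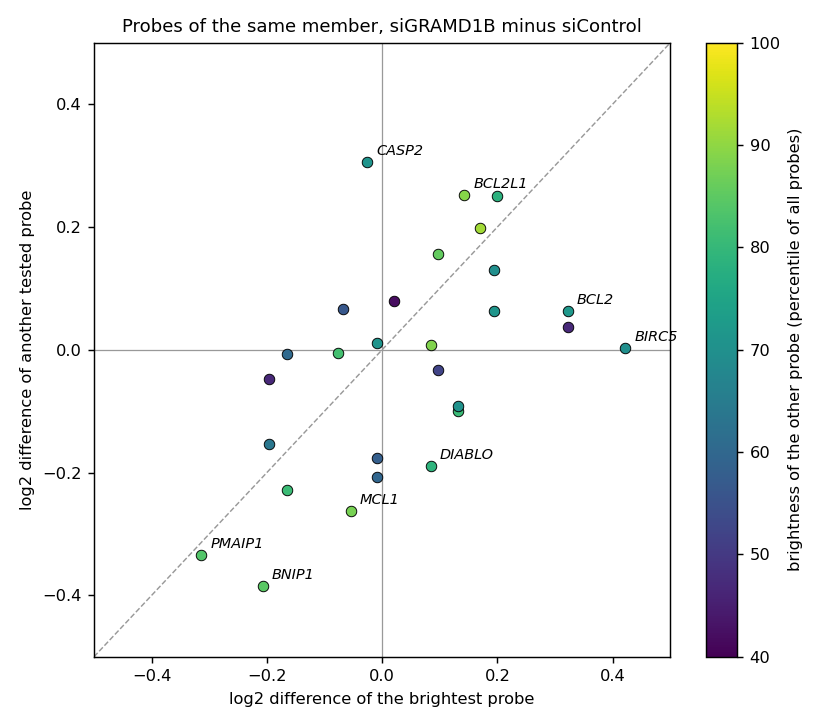
Log2 difference of the brightest probe (horizontal axis) and of each other tested probe (vertical axis) of the same member, for 20 members, coloured by the brightness percentile of the other probe. PMAIP1 lies close to the dashed line of equal differences, and BIRC5 and CASP2 lie far from it.

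Other genes of the pathway were taken from 9 further lists, with 65 genes tested by their brightest probe. Of these, 2 were higher and 4 lower (9.23%, beside 9.43% of all genes). TRAF1, an adaptor that binds BIRC2, read 8.50, 8.60 and 8.47 in siGRAMD1B arrays, against 7.51, 7.32 and 7.61 in siControl arrays, a log2 difference of 1.04 ± 0.10 (SE, limma adjusted p = 4.76e-06). Its second probe also rose (0.42, adjusted p = 0.016). NLRP3, a sensor that activates caspase 1, rose by 0.50 (adjusted p = 0.0053), with its other probes at 0.31 and 0.11 (adjusted p = 0.17 and 0.65). On the list of death receptors and adaptors, which also holds the ligand gene TNFSF10, 10 genes were tested. FAS differed by -0.41 (adjusted p = 0.043) and the TRAIL decoy receptor gene TNFRSF10D by -0.58 (adjusted p = 0.015). On this list 0 were higher and the other 8 genes tested did not pass. Over all genes, by the brightest probe, 5.71% were higher and 3.72% lower. TNFRSF10D read 9.02, 9.23 and 9.16 in siGRAMD1B arrays, against 9.86, 9.31 and 9.97 in siControl arrays, where replicate 2 was the low one. ENDOG, a nuclease of mitochondria, fell by 0.43 on the log2 scale (adjusted p = 0.015), and VDAC2, an outer membrane channel known to bind BAK, fell by 0.48 (adjusted p = 0.0065), although its probe was dim and the fall was 0.32 in the authors' log2 values. The calls of FAS, TNFRSF10D and ENDOG were lost without siControl replicate 1 (adjusted p = 0.23, 0.081 and 0.061), where the FAS difference was -0.27, and TNFRSF10D also without siGRAMD1B replicate 2 (0.077) or siControl replicate 4 (0.060). FAS was also lost without siGRAMD1B replicate 2, 3 or 4 (0.14, 0.089 and 0.12), and ENDOG without siGRAMD1B replicate 3 or 4 (0.077 and 0.072).

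The partners of survivin in the chromosomal passenger complex did not pass. AURKB differed by 0.079, INCENP by 0.24 and CDCA8 by -0.32 (adjusted p = 0.77, 0.19 and 0.076). No gene passed among 5 tested genes of MCL1 turnover, 8 of the BAG family and its HSP70 partners and 7 regulators of BH3-only genes.

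**Figure D4:**
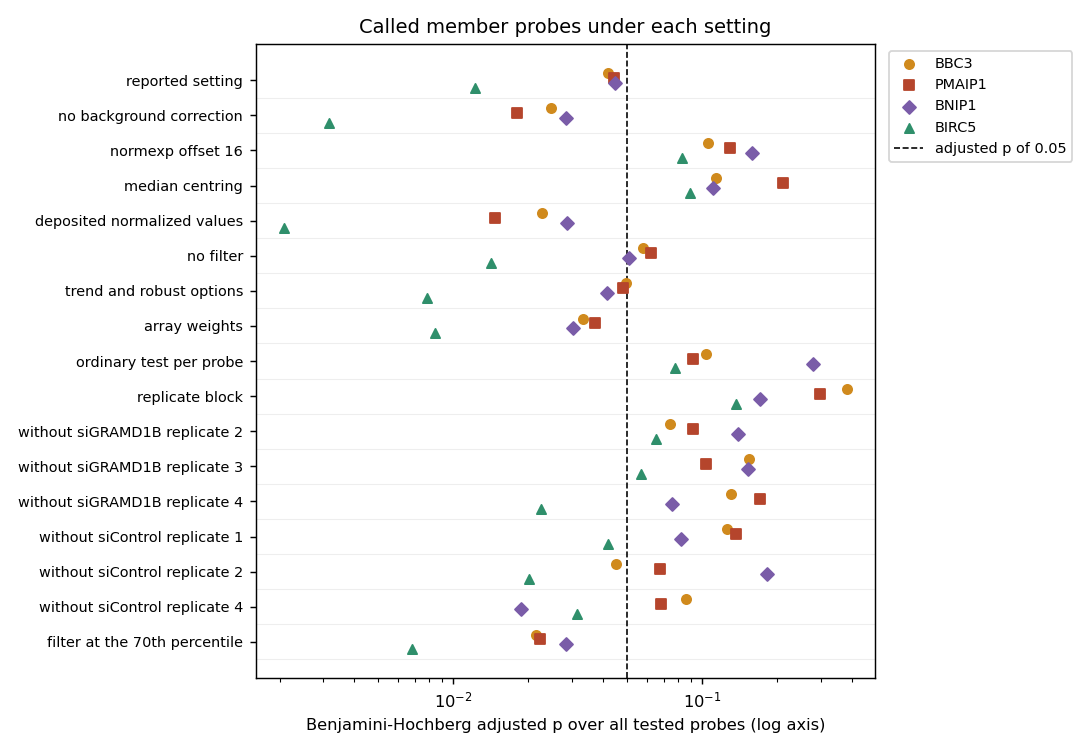
Adjusted p (horizontal log axis) of the 4 called member probes under the reported setting and 16 alternatives (rows), with a dashed line at 0.05. BIRC5 lies left of the line in 10 of 16 alternatives, BBC3 and BNIP1 in 6 and PMAIP1 in 5.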

How the data were processed

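Total RNA of siGRAMD1B (3) and siControl (3) arrays was hybridised to Illumina bead arrays and, per the submitters' processing notes, read out in BeadStudio. The deposited table gives each probe's linear intensity on each array, neither normalized nor background-subtracted as far as the values show, and no detection p-values. Its header is displaced by 1 field, which was corrected. A second deposited table holds log2 values that the authors normalized by an unstated method, and each array matched its own column there (Spearman's rho 1.00, against at most 0.85 for other columns).

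Intensities were corrected with limma 3.58.1 (normexp, offset 50), quantile-normalized and taken to log2, and the offset makes fold changes of dim probes too small. Probes with a mean above the 40th percentile (6.16) were tested with lmFit and eBayes (2-sided, no covariates, 17.9 degrees of freedom) and adjusted by Benjamini-Hochberg over all of them. Intervals are 95% intervals of that fit. The number of arrays limits the precision, and slides or scan dates were not given in the sources used here.

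Symbols came from the platform annotation (30113 probes with 1 symbol, 8 with several). A gene is given in full if a tested probe was called, or if its groups did not overlap with a log2 difference of at least 0.25. From the other lists the called genes are named, and genes close to a called member were named after their values were seen. The members, lists and tests were chosen with earlier results of these data known. The test was checked on simulated normalized values, without the background correction and normalization steps. The changes added there were larger than that of any member. The check therefore cannot show how well differences of the members' size are found.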

Additional observations from a re-analysis of the deposited data

How the results depend on the processing

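All 4 called probes kept their sign under the 16 alternatives, but not their calls. Members called higher numbered 2 in the reported setting, 4 with no background correction, 4 from the authors' own log2 values, 5 with the filter at the 70th percentile, 1 with no filter and 0 with an offset of 16, median centring or the ordinary test per probe. Members called lower numbered 2, and 0 with an offset of 16, median centring, no filter, the ordinary test or the brightest probe of each gene alone. Member probes called higher numbered the same as members called higher in each setting. Probes called lower numbered 3 with no background correction, the authors' log2 values, the 70th percentile filter, the trend and robust options or array weights, where members called lower numbered 2. With each array left out in turn, members called higher ranged between 0 and 2 and members called lower between 0 and 1. Without siGRAMD1B replicate 2, 3 or 4, calls covered 0%, 0% and 1.59% of member probes, beside 4.14%, 4.12% and 4.12% of all probes. Without siControl replicate 1, 2 or 4, they covered 1.56%, 3.17% and 4.84% of member probes, beside 4.35%, 5.53% and 7.54% of all probes. Fits with an array left out use fewer arrays and the ordinary test fewer degrees of freedom. The cause of the changes in any setting was not tested. The share of all probes moved too. Higher calls were 4.77% of all probes with no background correction, 4.83% in the authors' log2 values and 9.2% with the 70th percentile filter, against 3.89% as reported, and calls in either direction were 2.41% with the offset of 16 and 0.903% with the ordinary test. At the 70th percentile filter 17% of member probes were called, beside 17.4% of all probes.

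The groups share replicate numbers 2 and 4 only, which do not show that samples are paired (correlations of their deviations 0.025 and -0.15). With the replicate block, 0 members were called higher and 0 lower, beside 3.48% of all probes, and the sign changed for CYCS (-0.093) and BCL2L11 (-0.0089).

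Other changes of sign were those of members near 0. BAG3 (0.0019), APAF1 (0.073) and the dimmer BIRC5 probe (-0.012) changed with array weights and CASP8 (0.0097) with median centring. With 1 array left out, log2 differences ranged between -0.048 and 0.037 for BAG3, -0.15 and 0.033 for MCL1, -0.055 and 0.0070 for CASP2, -0.17 and 0.19 for APAF1, -0.062 and 0.00021 for BAK1, -0.041 and 0.024 for CASP8, -0.076 and 0.14 for CYCS, -0.17 and 0.030 for CASP9, -0.11 and 0.11 for BMF, -0.032 and 0.12 for CASP10, and -0.073 and 0.061 for the dimmer BIRC5 probe. The same settings, run on the called pathway genes after the data were seen, left TRAF1 called in 16 of 16, NLRP3 in 14, TNFRSF10D in 11, ENDOG in 9 and FAS in 7 of 16, and VDAC2 in 14 of 15. With 1 array left out, the brightest probe of 22 of 35 members moved by over 1.5 times or changed sign, 10 of them in sign. Dim probes limit what can be said of BCL2, BMF, BCL2L11, XIAP and the initiator caspases.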

Other observations

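The 10 member probes below the filter on dim probes belong to BCL2, BMF, BCL2L11, CASP1, CASP2, CASP8, CASP10 and BAG1, and were not tested. The only BAG1 probe, for a co-chaperone that binds BCL2 and HSP70, read 6.03, 6.05 and 6.03 in siGRAMD1B arrays, against 6.05, 6.29 and 6.27 in siControl arrays. A CASP10 probe read 6.10, 6.20 and 6.44 in siGRAMD1B arrays, against 5.95, 6.05 and 6.02 in siControl arrays, and a BCL2L11 probe 6.12, 6.27 and 6.12 in siGRAMD1B arrays, against 5.90, 6.10 and 6.09 in siControl arrays. Groups did not overlap at these 3 probes (30% of 10) and overlapped at the other 7, beside 10.1% without overlap among all 18893 probes below the filter and 24.1% among all probes tested.

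Within siControl, replicate 2 was the highest array at 50.8% of the 63 tested member probes and replicate 4 the lowest at 44.4%. Within siGRAMD1B, replicate 2 was the highest at 42.9% and replicate 4 the lowest at 38.1%. These shares were not computed over all tested probes, so they cannot tell a trait of the members from one of the whole array.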
